A study of Mus musculus with 2 samples.

Results

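The genes described here are 36 genes known for expression in the oocyte, the germ cell of the ovarian follicle, read in whole ovaries of superovulated mice with and without ulipristal acetate. They were chosen by name, as every probe set whose platform annotation names exactly 1 gene with a symbol among the 36. The array held such probe sets for 33 of the 36 genes, of 18193 named genes in all, with 42 probe sets between them. Nlrp2 and Npm2 had none, and Oas1d only a probe set that it shares with another gene, so these 3 are not analysed here. Of the 33, 28 were bright enough to be measured, which means that their log2 signals, averaged over both arrays, reached the median of the non-control probe sets, a signal of 30.8. Gpr3, Figla, Pou5f1, Lin28a and Ybx2 were below it. The defining oocyte markers Gdf9, Zp1, Zp2, Zp3 and Nlrp5 all had signals above 30.8 on both arrays.

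The ovaries came from immature wild type mice of the CD-1 background, 24 to 28 days old. Each animal received 5 IU of PMSG (pregnant mare serum gonadotropin), which grows a cohort of follicles, then 5 IU of hCG (human chorionic gonadotropin), the ovulatory stimulus, after 48 h. Oil vehicle or ulipristal acetate (CDB in the labels), a drug that modulates the progesterone receptor, followed 2 h after hCG. Ovaries were collected at 11 h, without a statement of the injection from which this time counts. There was 1 array for each treatment, and the number of mice behind an array is not given, so the spread between animals is unknown and no difference below carries a p-value. The superovulated immature ovary holds a hormone-grown cohort of follicles beside many small ones, and oocytes of all stages enter the RNA of a whole ovary.

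The oocyte grows inside a layer of granulosa cells, builds the zona pellucida coat around itself, and stores messenger RNAs and proteins for the first divisions of the embryo. Ovulation restarts its meiosis, and during this maturation translation of the stored messages depends largely on the length of their poly(A) tails rather than on new transcription. The subcortical maternal complex is a protein assembly under the oocyte membrane that early embryos need to cleave.

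The ratios of the oocyte genes went both ways around a median close to that of all genes, from -0.69 for Astl to 1.02 for Kit on the log2 scale. Their median log2 ratio of ulipristal over vehicle was 0.08 over the 28 measured genes, beside 0.09 over all 11364 measured genes. Of the 28, 19 lay above 0 and 9 below, a share above 0 of 67.9% against 60.0% of all measured genes. After quantile normalization and lowess centring the sign of their median turned, to -0.020 and -0.034, with 13 of the 28 above 0 in each. Kit, a receptor tyrosine kinase, was the only member at least 2-fold higher on the ulipristal array, which makes 1 of 28 or 3.57%, against 3.34% of all measured genes, and its ratio fell short of 2-fold under 4 alternative settings. No measured member (0 of 28) was at least 2-fold lower, against 1.56% of all measured genes. These shares are near the background and are no result about the members.

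The middle 50% of the 28 ratios ran from -0.07 to 0.28 on the log2 scale, and that of all measured genes from -0.15 to 0.36. Within 1.2-fold in either direction, a bound chosen after the values were seen, lay 18 of the 28 members, or 64.3%, against 51.4% of all measured genes. Of these, Btg4 and Bcl2l10 left the bound after median centring (-0.32 and -0.27), quantile normalization (-0.37 and -0.29) and lowess centring (-0.38 and -0.30). The share of all genes within the bound was not counted after these normalizations. At 1.5-fold, 3 members were higher (Kit, Mos and Nobox, 10.7% against 12.3% of all genes) and 1 was lower (Astl, 3.57% against 4.58%). Mos and Nobox fell short of 1.5-fold after quantile normalization (0.57 and 0.48) and lowess centring (0.57 and 0.48), and Nobox also after median centring (0.55). With 50 added to every signal, Mos, Nobox and Astl had ratios of 0.35, 0.34 and -0.36, all short of 1.5-fold. Because whole ovaries were used, fewer oocytes and less RNA per oocyte cannot be told apart in any of these values. Measured probe sets of the same gene, over 4955 genes with at least 2 of them, had a pooled SD of 0.37 in their log2 ratios. It says how far probe sets of a gene differ on the same 2 arrays. Neither the spread between animals nor an error shared by all probe sets of an array is covered by it.

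**Figure D1:**
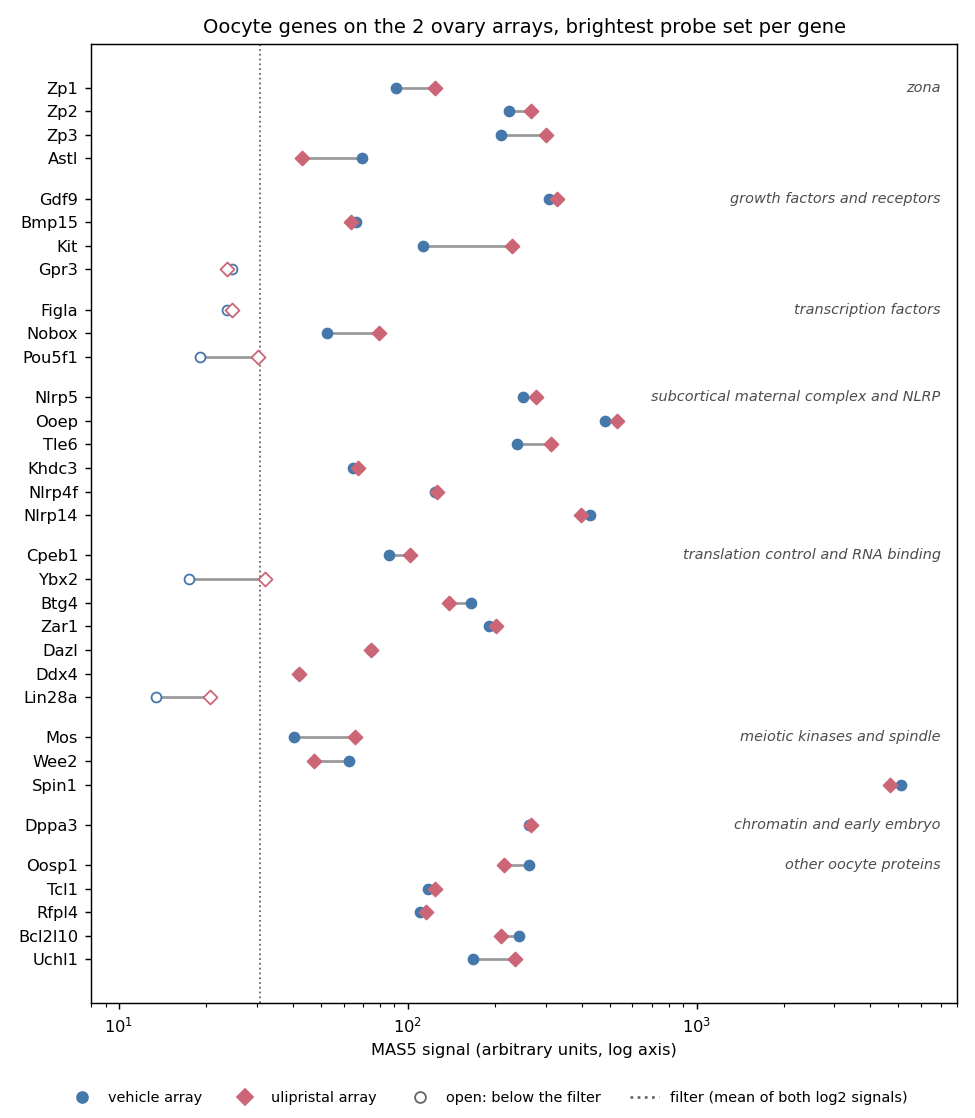
MAS5 signal (arbitrary units, log axis) of the brightest probe set of each of 33 oocyte genes, grouped by role, with circles for the vehicle array and diamonds for the ulipristal array (1 array each, so no error bars). Open symbols and the dotted line mark genes below the filter of 30.8. Of the 28 measured pairs 18 lie within 1.2-fold, or 64.3% against 51.4% of all measured genes. Btg4 and Bcl2l10 are among the 18 and leave that bound after median centring, quantile normalization or lowess centring. Kit has the widest gap among the measured genes, with signals of 113 and 229.7.

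Dim and bright members were set beside genes of like brightness, because ratios on these arrays moved with signal. Among genes with a mean signal under 100, the median log2 ratio was 0.25 over all 2872 genes and 0.00 over the 9 oocyte genes. In this band 9.51% of all genes and 0 of the 9 members were at least 2-fold higher. At a mean signal of 100 or more, the median was 0.06 over all 8492 genes and 0.08 over the 19 oocyte genes. Within 1.2-fold lay 56.4% of these brighter genes and 13 of the 19 members (68.4%). Btg4 and Bcl2l10 are among these 13 and left the bound after median centring, quantile normalization or lowess centring. The medians of both sets of members thus lay near 0, whereas that of all dim genes lay above it. Single members were spread more widely, from -0.69 to 0.70 in the dim band and from -0.28 to 1.02 in the brighter band.

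**Figure D2:**
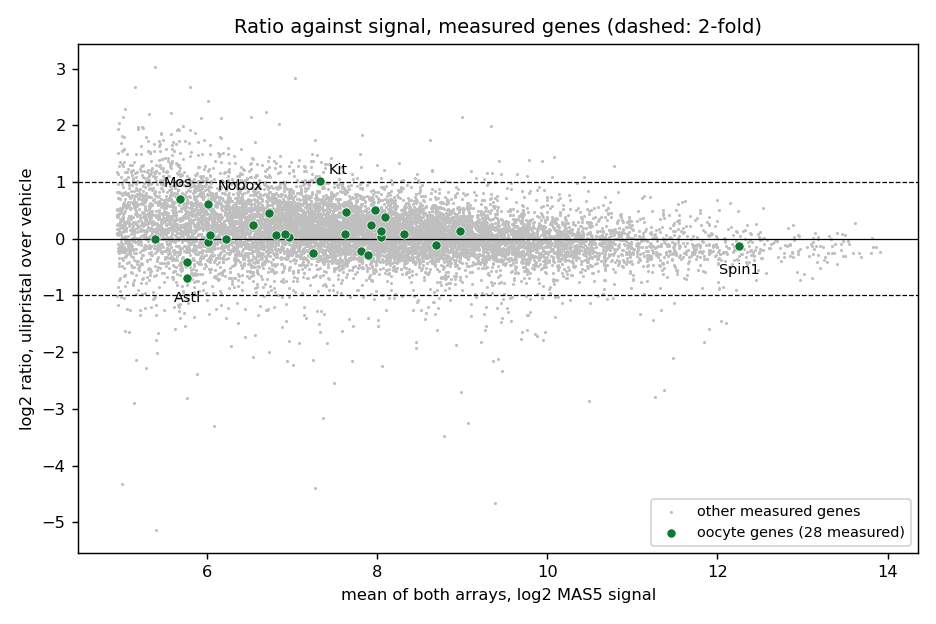
Log2 ratio of ulipristal over vehicle against the mean log2 MAS5 signal of both arrays, for all 11364 measured genes (grey) and the 28 measured oocyte genes (green), with dashed lines at 2-fold. Kit alone among the oocyte genes reaches the upper dashed line, at 1.02, and Astl is the lowest, at -0.69.

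Promoters of 4 members are shown because they stand for the main roles (Zp3 for the zona, Bmp15 for the growth factors, Ooep for the maternal complex) and for the only member past 2-fold (Kit). FIGLA, an oocyte transcription factor that the zona genes depend on, binds with a partner to E-boxes, CANNTG, and NOBOX, a homeodomain factor, to sites such as TAATTG or TAATTA. The sequences are the 250 bases before the annotated start, on the strand of the gene, from RefSeq's table for GRCm38.p6: chr5:135979855-135980104 on the plus strand, chrX:6320725-6320974 on the minus strand, chr9:78378589-78378838 on the minus strand and chr5:75574737-75574986 on the plus strand. Capitals mark matches to CANNTG, which reads the same on both strands, and to TAATTG or TAATTA on either strand, and no 2 matches overlap in these windows.
Zp3: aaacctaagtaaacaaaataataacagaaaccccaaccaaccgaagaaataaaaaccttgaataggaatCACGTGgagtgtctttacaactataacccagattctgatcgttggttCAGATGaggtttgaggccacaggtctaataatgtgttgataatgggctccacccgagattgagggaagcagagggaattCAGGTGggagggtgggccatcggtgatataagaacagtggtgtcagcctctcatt
Bmp15: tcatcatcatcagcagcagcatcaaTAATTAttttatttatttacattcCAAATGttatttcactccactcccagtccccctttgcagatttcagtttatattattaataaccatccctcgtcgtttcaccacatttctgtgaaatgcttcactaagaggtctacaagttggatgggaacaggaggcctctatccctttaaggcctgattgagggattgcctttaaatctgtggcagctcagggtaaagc
Ooep: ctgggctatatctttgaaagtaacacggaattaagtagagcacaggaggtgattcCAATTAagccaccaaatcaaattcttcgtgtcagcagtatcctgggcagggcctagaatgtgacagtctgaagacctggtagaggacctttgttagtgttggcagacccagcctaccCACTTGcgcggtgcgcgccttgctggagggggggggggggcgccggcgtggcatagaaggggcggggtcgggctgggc
Kit: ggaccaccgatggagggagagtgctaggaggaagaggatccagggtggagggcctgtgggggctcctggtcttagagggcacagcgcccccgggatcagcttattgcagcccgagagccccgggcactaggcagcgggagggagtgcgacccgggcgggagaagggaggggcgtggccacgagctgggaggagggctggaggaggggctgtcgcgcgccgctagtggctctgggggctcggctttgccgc
Zp3 held 3 E-boxes, the first at -181 from the start, Bmp15 an E-box at -201 and TAATTA at -225, and Ooep an E-box at -78 and the reverse complement of TAATTG at -195. Kit held neither motif in this window. Over the members, 26 of 35 windows (74.3%, from the 27 genes in the table) held an E-box, against 66.2% of all 32851 windows. For TAATTG or TAATTA the shares were 11.4% (4 windows, of Bmp15, Nlrp5, Ooep and Wee2) and 11.3%. A match describes letters and not a bound site, and the shares of the members were close to those of all promoters. The table did not hold Zp1, Zp2, Gdf9, Nlrp14, Mos, Dppa3, Npm2, Oas1d and Bcl2l10.

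The zona pellucida genes were a little brighter on the ulipristal array, each by less than 1.5-fold. Zp3, the glycoprotein that takes part in sperm binding, read 211 with vehicle and 301 with ulipristal, 1.43-fold higher. Zp1, which cross-links the filaments of the coat, read 91.0 and 124, 1.36-fold higher. Zp2, which sperm also bind and which is cut after fertilization, read 225 and 267, 1.19-fold higher. These 3 coat genes therefore lay on the same side of 0, between 0.25 and 0.51 on the log2 scale. Astl, the protease ovastacin that cuts Zp2 after fertilization, lay on the other side. Its signals were 69.4 with vehicle and 43.0 with ulipristal, 1.61-fold lower, and it had the lowest ratio of the 28 members. The ratios of Zp3 and Zp1, 0.51 and 0.45, were larger than the SD of 0.37 between probe sets of a gene, and that of Zp2, 0.25, was smaller. After quantile normalization, lowess centring or the addition of 50 to every signal, Zp1 fell below that SD, at 0.33, 0.32 and 0.30. The 3 coat genes stayed above 0 and Astl below 0 under each normalization tried.

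The oocyte growth factors, which act on the surrounding granulosa and cumulus cells, were almost level. Gdf9, growth differentiation factor 9, read 309 with vehicle and 329 with ulipristal, 1.06-fold higher. Bmp15, its close relative and partner, read 66.1 and 63.5 on its brightest probe set, 1.04-fold lower. The 2 dimmer probe sets of Bmp15 were below the filter and went opposite ways, with log2 ratios of -0.90 and 0.62. Gpr3, the receptor that keeps cyclic AMP high and so holds the oocyte in meiotic arrest, was below the filter as well, with signals of 24.6 and 23.7.

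Kit, the receptor for the granulosa ligand that supports oocyte growth, read 113 with vehicle and 229.7 with ulipristal, 2.03-fold higher. The log2 ratio of 1.02 lay at the edge of 2-fold, and after median centring, quantile normalization, lowess centring or the addition of 50 to every signal it was 0.96, 0.92, 0.91 and 0.78. The other Kit probe set was near the floor of 7.17, with 7.78 and 11.6. Kit is also known from theca and interstitial cells, mast cells and other non-germ cells. Of the mast cell markers 1 of 6 was measured, Hdc, the enzyme that makes histamine, at 1066 and 715, and the defining protease genes Cpa3, Mcpt4, Tpsb2 and Cma1 were all below the filter. The mast cell list summed to 1112 with vehicle and 753 with ulipristal. Theca and interstitial markers, with 7 of 8 on the array and 6 measured, summed to 3437 and 4764. At least 2-fold higher were 2 of the 6 and lower 1, against 3.34% and 1.56% of all measured genes. The largest ratios in size were those of Hhip (280 and 60.0) and Fabp3 (110 and 274). The part of such cells in the Kit value was not tested.

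Of the oocyte transcription factors only Nobox, which drives genes of the growing oocyte, was bright enough to be measured. It read 52.4 with vehicle and 79.9 with ulipristal, 1.53-fold higher. Figla was level below the filter, at 23.7 and 24.6. Pou5f1, the pluripotency factor also known as Oct4, was below the filter too, at 19.1 and 30.4.

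The subcortical maternal complex had ratios that lay close together. Nlrp5, also called MATER, read 252 with vehicle and 278 with ulipristal, 1.10-fold higher. Ooep, also called FLOPED, read 482 and 529.9, 1.10-fold higher. Khdc3, also called FILIA, read 64.6 and 67.3, 1.04-fold higher. These 3 partners thus differed by 1.10-fold or less between the arrays. Tle6, the corepressor-like member of the complex, had the widest gap, with 240.0 and 312, 1.30-fold higher. The related NLRP genes, which encode further oocyte proteins of the same family, lay on both sides of 0. Nlrp4f read 124 and 127, 1.02-fold higher, and Nlrp14 read 429 and 398, 1.08-fold lower. Over the 6 genes the median log2 ratio was 0.10 (-0.0027 after lowess centring), and 5 were above 0. Within 1.2-fold were 5 of the 6, or 83.3% against 51.4% of all measured genes.

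Genes of translation control and RNA binding had 5 of 5 measured members within 1.2-fold, against 51.4% of all measured genes, with Btg4 at the edge and past it after median centring (-0.32), quantile normalization (-0.37) and lowess centring (-0.38). Ddx4, the germ cell helicase also known as VASA, read 42.1 on both arrays. Dazl, an RNA-binding protein that promotes translation during maturation, had signals of 74.9 and 74.8, and its second probe set gave a log2 ratio of 0.03. Zar1, a maternal factor that binds stored messages, read 191 and 202, 1.06-fold higher. On their brightest probe sets, the signals of Dazl and Ddx4 were equal on both arrays to within 1 unit. Cpeb1, which controls the poly(A) tails of stored messages, read 86.2 and 102, 1.18-fold higher. Btg4, which brings the CCR4-NOT deadenylase to maternal messages, read 166 and 139, a log2 ratio of -0.26. The class median was 0.00. Ybx2, which coats and stores maternal messages, and Lin28a, an RNA-binding protein of germ and stem cells, were below the filter, with 17.5 and 32.1 for Ybx2 and 13.4 and 20.6 for the brighter probe set of Lin28a.

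The meiotic kinases lay on opposite sides of 0, at low signals. Mos, the kinase that keeps the ovulated egg in metaphase arrest, read 40.4 with vehicle and 65.5 with ulipristal, 1.62-fold higher. Wee2, an oocyte kinase that inhibits CDK1, read 62.7 and 47.4, 1.32-fold lower, and 36.4 and 34.6 on its second probe set. Both genes had mean signals under 100. Spin1, a histone reader that associates with the meiotic spindle and is also expressed outside the germ line, was read by 4 measured probe sets. The brightest gave 5118 and 4684, 1.09-fold lower, and the others gave log2 ratios of -0.18, -0.17 and 0.21. Leaving out Kit, Spin1 and Uchl1, which other cells are known to express as well, moved the median of the members from 0.08 to 0.07 over 25 genes and left 0 of them at 2-fold.

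**Figure D3:**
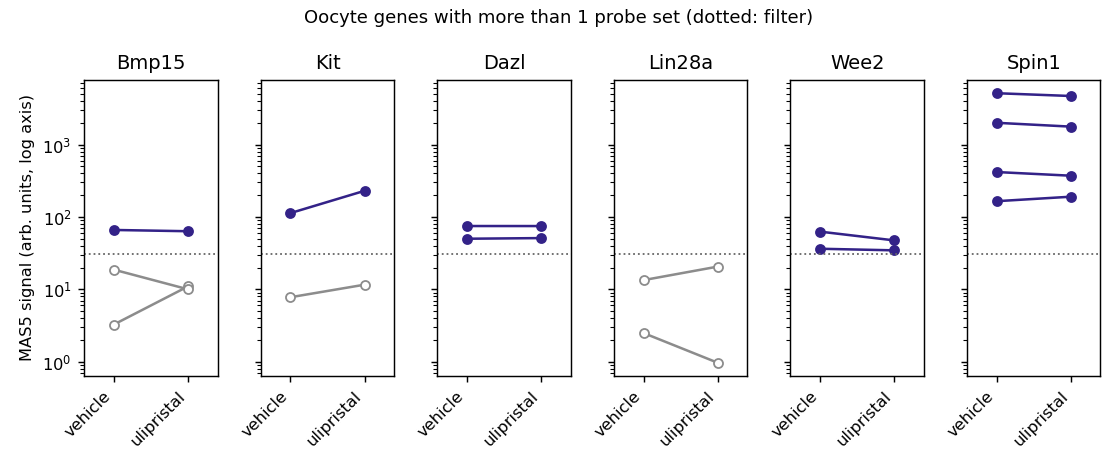
MAS5 signal (arbitrary units, log axis) on the vehicle and ulipristal arrays for every probe set of the 6 oocyte genes that have more than 1, each line being a probe set. Filled points passed the filter of 30.8 (dotted) and open grey ones did not. The measured lines of Dazl and Spin1 are nearly flat, that of Kit climbs from 113 to 229.7, and the dim lines of Bmp15 cross.

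Among the other oocyte proteins, 3 of 5 lay within 1.2-fold, or 60% against 51.4% of all measured genes. Bcl2l10, 1 of these 3, was past that bound after median centring (-0.27), quantile normalization (-0.29) and lowess centring (-0.30). Rfpl4, a RING finger-like protein of the oocyte, read 110.0 with vehicle and 116 with ulipristal, 1.05-fold higher. Tcl1, a cofactor of the kinase AKT, read 118 and 124, 1.06-fold higher. Bcl2l10, a BCL2 relative, read 243 and 209.7, 1.16-fold lower. Oosp1, a secreted oocyte protein, read 263 and 216, 1.22-fold lower. These 4 thus fell on both sides of 0. Dppa3, also called STELLA, which protects maternal methylation in the zygote, was level at 263 and 268. Uchl1, a deubiquitinase that is abundant in oocytes and in neurons, had the widest gap of this group, with 168 and 234.5, 1.39-fold higher. Of 8 nerve markers, 7 were below the filter, among them Prph (23.5 and 25.5), Stmn2 (27.6 and 28.0) and Tubb3 (19.9 and 31.8). The eighth, Snap25, is also induced in granulosa cells at ovulation and read 144 with vehicle and 2.47 with ulipristal. The part of nerve in the Uchl1 value was not tested.

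A further list of oocyte genes outside the 36 held 81 symbols, of which 64 had a probe set with 1 gene and 36 were measured. Their median log2 ratio was 0.08, with 21 above 0 and 15 below, and 18 were within 1.2-fold, or 50% against 51.4% of all measured genes. At least 1.5-fold lower were 5 of the 36, or 13.9% against 4.58% of all measured genes. Higher by as much were 2, or 5.56% against 12.3%. All of the lower genes but C86187 had signals under 100 on both arrays, whereas these shares cover genes of every brightness. Ulipristal signals of Tdrkh (22.3) and Aurkc (23.2) lay below the filter value, which only their means over both arrays reached. At least 2-fold higher were 0 of the 36, and the count of those at least 2-fold lower was 1, namely Tdrkh, a Tudor protein of the germ line small RNA pathway, at low signals of 45.6 and 22.3. Padi6, an oocyte enzyme tied to the cytoplasmic lattices, read 345 and 388, and Zbed3, a partner of the maternal complex, read 477 and 542; both were chosen after their values were seen. The other large differences were Aurkc, a meiotic kinase (1.80-fold lower), C86187 (1.60-fold lower), Dnmt3l, a cofactor of DNA methylation in the growing oocyte (1.57-fold lower), Lhx8, a transcription factor of early oocytes (1.56-fold lower), Cd9, the egg tetraspanin needed for sperm fusion (1.53-fold higher), Fbxw21 (1.52-fold higher) and Taf4b, a subunit of the general transcription machinery in germ cells (1.45-fold higher). Cd9 and several others of the list are also known from somatic cells of the ovary. A short list of stored messages that gain poly(A) tails in maturation had 7 of 8 on single-gene probe sets, all measured, with a median of 0.00 and a range from -0.37 to 0.70. The largest ratios were those of Mos and of Tpx2, a spindle assembly factor (0.48), and 3 of the list's members are among the 36. Vehicle signals in this list ran from 40.4 for Mos to 2772 for Cnot7. They come from whole ovaries, and the part of somatic cells in them was not tested.

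Somatic cell markers of the same ovaries are given beside the oocyte genes. All 10 mural granulosa markers were measured, and their median log2 ratio was 0.97. At least 2-fold higher were 5 of them (50%, against 3.34% of all measured genes), and 0 were lower by as much. The list summed to 12831 with vehicle and 17300 with ulipristal. The highest ratios of that list were those of Inhbb and Inhba, at 1.44 and 1.39, which encode subunits shared by inhibin and activin. Its brightest genes, Inha (6933 and 8212) and Nr5a2 (3130 and 3253), had ratios of 0.24 and 0.06. Amh alone lay below 0, at -0.69. Inha, Nr5a2 and Amh were chosen after their values were seen. Of 7 measured cumulus markers, genes of the cells that touch the oocyte, with Amh again among them, the median was -0.63. Past 2-fold lay 1 on the upper side and 2 on the lower, against 3.34% and 1.56% of all measured genes. The lowest were Tnfaip6, with 322 and 90.1, and Has2, with 58.0 and 18.8, both of the matrix that expands around the oocyte. The ulipristal signal of Has2 lay below the filter value, which only its mean over both arrays reached. The other members past 0 on the upper side were Npr2, a natriuretic peptide receptor, with 264 and 611, and, short of 2-fold, Slc38a3 (0.45) and Pfkp (0.29), all 3 chosen after their values were seen. Of 7 measured oviduct markers 5 were at least 2-fold higher, against 3.34% of all measured genes. All 5 had vehicle signals under 100, and among all genes with a mean signal under 100 the share was 9.51%. The highest ratios of the measured markers were those of Foxj1 and Ccdc39, at 1.98 and 1.41. Their vehicle signals, 19.1 and 27.4, lay below the filter value, which only their means over both arrays reached. The oviduct list of 8 summed to 3873 and 6214, of which Ovgp1, the oviductal glycoprotein, made 3641 and 5642. The oocyte list summed to 9775 and 9805 over 33 genes, of which Spin1 made 5118 and 4684, and to 4375 and 4657 without Kit, Spin1 and Uchl1. How far the somatic lists differ from the oocyte genes was not tested, since there is 1 array for each treatment and lists of genes are no replicates.

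**Figure D4:**
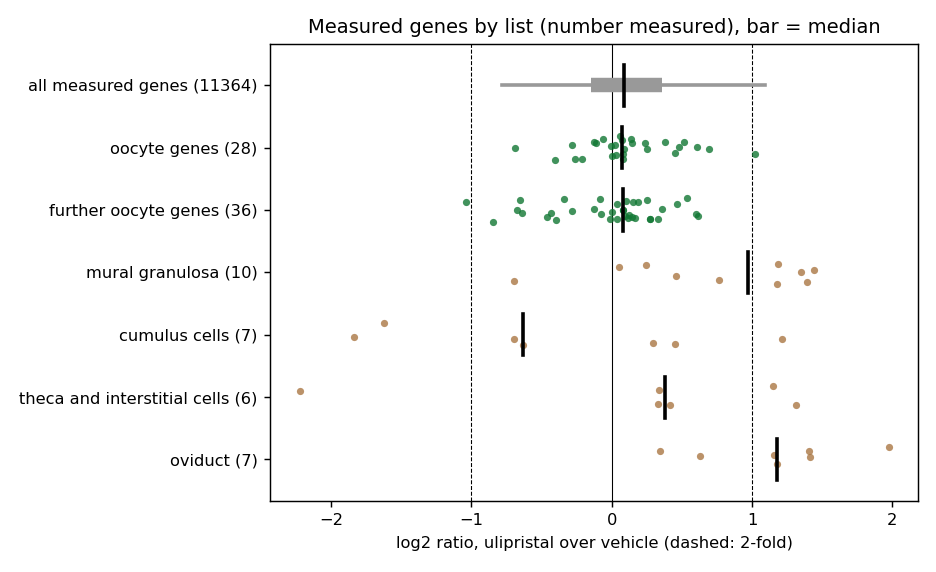
Log2 ratio of ulipristal over vehicle for measured genes of each list (1 point per gene, black bar at the median, number measured in brackets, dashed lines at 2-fold). For all 11364 measured genes the thick bar spans the middle 50% and the thin line the middle 95%. The medians of both oocyte lists (0.08 and 0.08) stand beside that of all genes (0.09). The granulosa (0.97), oviduct (1.18) and theca (0.38) medians lie to its right, and the cumulus median (-0.63) to its left.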

How the data were processed

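RNA from whole ovaries (100 ng per sample) was hybridised to 1 Affymetrix mouse array for each treatment, as the labels' protocols state, and the number of arrays limits the precision. The authors deposited probe set intensities, apparently MAS5 signals. MAS5 and Affymetrix Expression Console (version 1) stand in the submitters' processing notes. After trimming 2% at each end, both arrays averaged 150.001, which hides any shift common to most genes. Detection calls were not used here.

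Of 45101 probe sets, 34945 named 1 gene. Groups came from the treatment label. Signals were floored at 7.17 (25th percentile without controls) before log2, and the brightest probe set stood for a gene. With 1 array each, no test was possible, and 2-fold counted as a difference. The 36 members, their 8 classes and the other 8 lists were chosen with earlier results of these data known. Named were all members, the 8 further oocyte genes with the largest absolute ratios, and up to 2 genes of each other list. Markers of mast cells and nerve, and genes said to be chosen after their values were seen, fall outside this rule. The gene identifiers of all 33 members on the array matched RefSeq symbols. Alternatives covered normalization, floor, filter, probe set choice and fold. The steps were tested on simulated data with planted changes of 3-fold or more. These are larger than the ratio of any measured member, so the test does not cover changes of the members' size. Python 3.11.15, pandas 2.3.3 and, for lowess, statsmodels 0.14.6 were used.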

Additional observations from a re-analysis of the deposited data

How the results depend on the processing

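With 1 array for each treatment, no alternative measures the spread between animals, and leaving out a replicate was not possible. A list or class median was taken as moved past 0.1 on the log2 scale, and a single gene past 0.37, the spread between probe sets of a gene. A count was taken as moved when it went to or from 0 or changed by more than 1.5-fold. Of 113 values of medians and counts under the alternatives, 91 did not move. Among these are all values without a floor or with the floor at the 50th percentile. Those 2 settings left every median and count exactly as it was and say nothing about stability. The bound for single genes was wider than most of their ratios and says little about their stability. The sign turned in 20 of 265 values of single genes, over 9 genes, of which the largest ratio was 0.13 in size, and Kit crossed 2-fold. The count of members at least 2-fold higher, 1 at first, was 0 after median centring, quantile normalization or lowess centring, 0 with 50 added to every signal, 0 without Kit, Spin1 and Uchl1 (chosen after seeing the data), 0 at 3-fold and 3 at 1.5-fold, where the count of lower members was 1. Over all measured genes, the share higher was 2.74%, 2.35% and 2.30% after these 3 normalizations and 0.475% with 50 added.

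The median of the members was -0.034 after lowess centring, against 0.037 for all genes. That centring gave class medians of 0.24 for the zona, -0.13 for translation control, -0.051 for other oocyte proteins, 0.016 for the meiotic kinases and Spin1, and -0.0027 for the maternal complex and NLRP genes. Quantile normalization gave -0.13 for translation control, -0.043 for other oocyte proteins and 0.046 for the meiotic class. With the filter at the 75th percentile, which kept 14 members, the medians were 0.56 for growth factors and receptors (Gdf9 and Kit) and -0.21 for other oocyte proteins. Without s and x probe sets, which dropped Bmp15, the former was also 0.56. Without Kit, Spin1 and Uchl1 the medians were -0.069 for other oocyte proteins and 0.15 for the meiotic class. The cause of these moves was not tested beyond the genes named as dropped. No paired analysis was possible because each treatment has 1 array. Of the 28 members, 9 had mean signals under 100.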
